A study of Homo sapiens with 8 samples.

Results

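The genes described here are 49 genes of cholesterol and fatty acid synthesis, taken from a list of names and read in MDA-MB-453 cells treated with the androgen 5α-dihydrotestosterone (DHT). A gene was measured where at least 1 probe set of the array was annotated to that gene's symbol alone, and where several were, the brightest on average across the 8 arrays stood for the gene. By that rule 44 of the 49 were measured, among 19775 genes in all. The 44 comprised 14 of 16 sterol enzymes, 5 of 5 genes of sterol control and transfer, and 25 of 28 genes of a fatty acid arm. Probe sets of CYP51A1, FADS1 and ELOVL1 carried a second symbol and were left out by the rule, and FDFT1 and ACSL3 were not analysed here.

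MDA-MB-453 is an established human breast cancer line. Before treatment all cells were kept for 3 days in 5% charcoal/dextran-treated serum and medium free of phenol red; such serum is low in steroid hormones. They then received vehicle, or 10 nM DHT for 4, 16 or 48 h, and total RNA from 2 biological replicates of each of the 4 groups was hybridised to Affymetrix HG-U133 Plus 2.0 arrays. For vehicle no time is stated in the labels, so an effect of DHT and an effect of time in culture cannot be told apart. In RNA from a whole culture, fewer cells of a type and less RNA per cell cannot be told apart either.

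Cells make cholesterol from acetyl-CoA through mevalonate, farnesyl pyrophosphate and squalene, and make fatty acids from the same acetyl-CoA through malonyl-CoA. Both routes are controlled by the sterol regulatory element-binding proteins (SREBPs), membrane-bound transcription factors that SCAP escorts to the Golgi for cleavage when sterols are low and that INSIG proteins retain in the endoplasmic reticulum when sterols are high. SREBF2 encodes the form best known for sterol genes, and SREBF1 the forms best known for fatty acid genes. Lipid synthesis genes are known targets of androgen action in prostate cancer cells.

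The SREBPs bind sterol regulatory elements, usually beside CCAAT boxes bound by NF-Y and GC boxes bound by Sp1, so the promoters were searched for those letters. RefSeq promoter windows of build GRCh38.p14, from 250 bases before to 50 bases after a gene's start, were at hand for 43 of the 49 genes. The sterol regulatory element core TCACCCCAC, read on both strands, stood in 0.43% of the 35116 windows, or in at least 1 window of 0.535% of the 27305 genes, and in 3 of the 43 genes, MID1IP1, ACSL1 and SREBF2. The shares that follow are also of genes. CCAAT stood in 39.7% of all genes and in 28 of the 43 genes, among them 11 of 13 sterol enzymes and 14 of 25 fatty acid genes. CACGTG stood in 8.77% of all genes and in 7 of the 43, and GGGCGG in 48.3% of all genes and in 39 of the 43. The palindromic androgen response element, AGAACA and TGTTCT with any 3 bases between them, stood in 1 gene of all and in none of the 43, and AGAACA alone, which is contained in it, stood in 17.5% of all genes and in PMVK, ACSL1 and ACSL5. A match is a description of these letters and not a measured binding site. The 5 stretches of 100 bases below show the 3 genes with the sterol element core, and SCD and SC5D as 1 gene of each arm that passed the test of change at 16 h. Each is written 5′ to 3′ on the gene's strand, and capitals mark TCACCCCAC, CCAAT or CACGTG on either strand, so that GTGGGGTGA and ATTGG are the opposite-strand readings of the first and second.
MID1IP1, chrX:38801359-38801458, plus strand: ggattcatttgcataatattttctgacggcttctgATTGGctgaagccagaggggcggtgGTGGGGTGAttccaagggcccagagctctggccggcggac
ACSL1, chr4:184805704-184805803, minus strand: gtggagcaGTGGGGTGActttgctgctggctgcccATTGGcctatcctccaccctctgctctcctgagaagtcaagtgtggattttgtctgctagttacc
SREBF2, chr22:41832926-41833025, plus strand: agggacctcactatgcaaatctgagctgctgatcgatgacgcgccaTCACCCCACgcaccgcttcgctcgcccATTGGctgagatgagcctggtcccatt
SCD, chr10:100346999-100347098, plus strand: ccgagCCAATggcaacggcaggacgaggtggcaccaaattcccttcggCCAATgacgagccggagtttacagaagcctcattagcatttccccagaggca
SC5D, chr11:121292667-121292766, plus strand: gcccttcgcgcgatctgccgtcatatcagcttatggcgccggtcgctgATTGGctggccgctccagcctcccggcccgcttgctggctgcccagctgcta
The core began 40 bases before the start in MID1IP1 and 242 bases before it in ACSL1, and both of these and SREBF2 had an opposite-strand CCAAT box within the stretch shown.

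The treatment was checked on FKBP5, a gene known to respond to androgens, which rose 0.98, 2.45 and 3.34 log2 units at 4, 16 and 48 h. Luminal epithelial markers were measured for 9 genes, with array means of their signal between 12.8 and 13.1. At 16 h KRT19 rose 0.58 and SPDEF 0.41 log2 units while CDH1 fell by 0.53, and at 48 h KRT19 rose 0.68 while GATA3 fell by 0.85, FOXA1 fell by 0.72 and CDH1 fell by 0.44. Of 2 basal markers measured KRT5, with a mean of 8.27, rose 0.51 at 48 h and KRT14 was not called. The part of these shifts in the lipid results was not tested. The 5 adipocyte markers had array means of 7.04 to 7.16, from ADIPOQ at 5.45, FABP4 at 6.34 and LEP at 6.92 to PLIN1 at 8.18 and CIDEC at 8.57, and none was called. The array of DHT 16 h replicate 2 stood apart from the others: its second principal component was -23.1 against -0.51 to 10.8, and its 3′ minus 5′ signal for ACTB was 1.52 against 0.203 to 0.945. Of the 98 probe sets of the 44 genes, 7 were lower there than in DHT 16 h replicate 1 by more than 0.8 log2 units. Over the 98 the median of replicate 2 minus replicate 1 at 16 h was 0.11. The share over all probe sets of the array was not counted. The part of RNA quality in these readings was not tested, and the differences of the 44 genes from vehicle at 16 h are therefore also given without that array.

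A minority of the fatty acid genes rose at 16 and 48 h of DHT, while most of the 44 genes passed no test. Differences were tested with limma on all 8 arrays, with Benjamini-Hochberg adjustment over the 19775 genes, and a gene was called at an adjusted p below 0.05. At 4 h none of the 44 was called in either direction, where 0.106% of all genes rose and 0.0708% fell. An unadjusted p below 0.05 was reached by 2 of the 44, and by 1550 of all 19775 genes. At 16 h 7 of the 44 rose, against 2.55% of all genes. The 3 that fell, all sterol enzymes, were a share of 6.82%, near the 4.3% of all genes. None of these 3 calls held under every alternative tried. At 48 h 6 rose, against 3.13% of all genes, and none fell, against 6.38%. In a test of any change over the 3 times 9 were called, against 8.9% of all genes. With DHT 16 h replicate 2 left out, 5 of the 7 genes that rose at 16 h were still called, against 1.25% of all genes, and 1 of the 3 that fell, against 3.7%. The lower count at 48 h was 2 without that array, against 7.44%. In all, 10 of the 44 were called in at least 1 comparison and 34 in none.

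**Figure D1:**
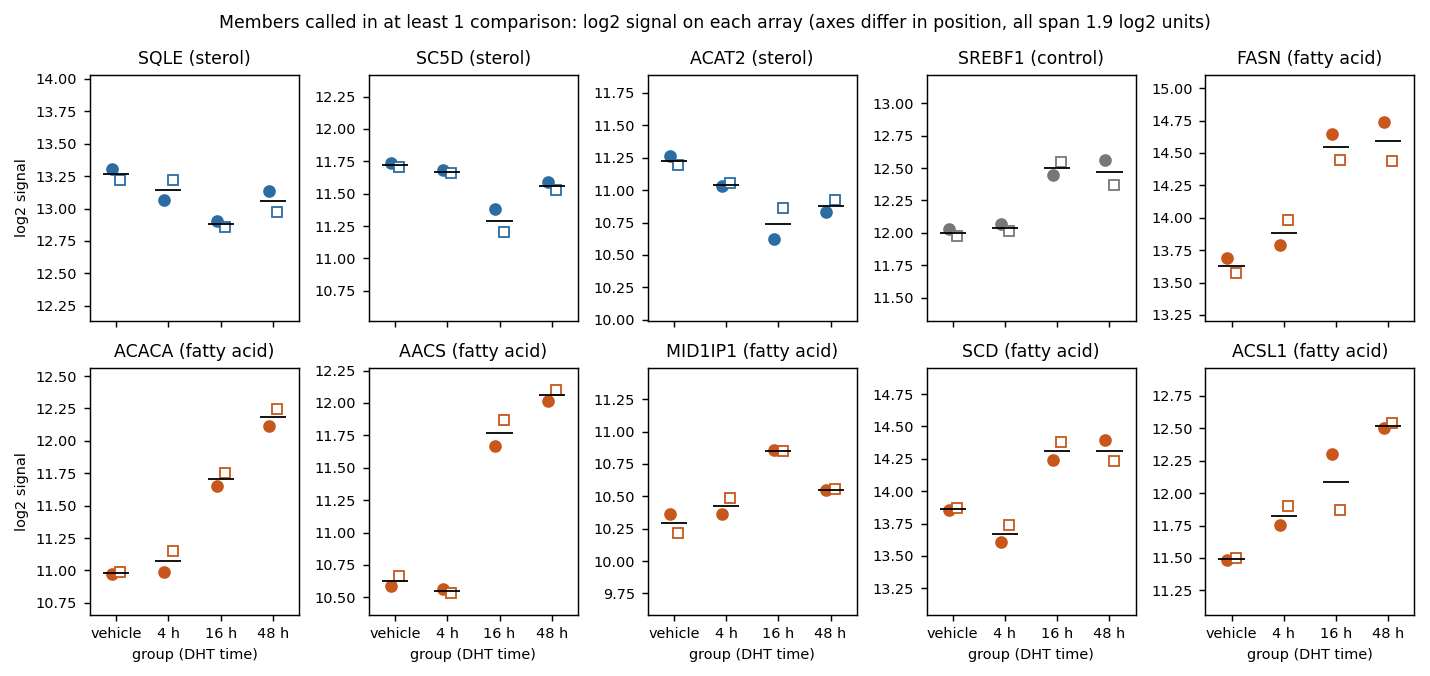
Log2 signal (vertical axis) on each of the 8 arrays for the 10 genes called in at least 1 comparison, by group (horizontal axis). Filled circles are replicate 1, open squares replicate 2 and bars the group mean. SQLE, SC5D and ACAT2 sit lowest at 16 h, whereas ACACA, AACS and ACSL1 sit highest at 48 h.

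The cytosolic supply of acetyl units and their joining into fatty acids held 4 of the 6 fatty acid genes that rose at 16 h. FASN, the synthase that builds palmitate, read 13.69 and 13.57 log2 units with vehicle, 13.79 and 13.98 at 4 h, 14.64 and 14.45 at 16 h, and 14.74 and 14.44 at 48 h. Its 4 arrays at 16 and 48 h all lay above its 4 arrays with vehicle and at 4 h. FASN rose 0.92 log2 units at 16 h (SE 0.12, n = 2 per group, limma adjusted p = 0.00107), or 1.89-fold, and 0.96 at 48 h (adjusted p = 0.000487). The rise at 16 h was 1.01 without DHT 16 h replicate 2 (adjusted p = 0.0022). Averaged with its dimmer second probe set, FASN differed by 0.55 at 16 h and was not called (adjusted p = 0.0832).

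ACACA, the acetyl-CoA carboxylase that makes malonyl-CoA for synthesis, read 10.97 and 10.99 with vehicle, 10.99 and 11.15 at 4 h, 11.65 and 11.75 at 16 h, and 12.12 and 12.24 at 48 h. Its arrays stood in order of time with no overlap between 4, 16 and 48 h. ACACA rose 0.72 log2 units at 16 h (SE 0.10, adjusted p = 0.00119), or 0.67 without DHT 16 h replicate 2 (adjusted p = 0.00807), and 1.20 at 48 h (adjusted p = 1.6e-05), or 2.30-fold. The further difference from 16 to 48 h was 0.48 (95% interval 0.26 to 0.69) and was not called, with an adjusted p of 0.0537. ACACB, the carboxylase isoform of the mitochondrial surface that is known for restraining fatty acid oxidation, differed from vehicle by 0.13 at 16 h (0.16 without DHT 16 h replicate 2) and 0.14 at 48 h and was not called.

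AACS, which turns acetoacetate into acetoacetyl-CoA in the cytosol and so can feed both routes, had the largest rise of the 44 genes at both 16 and 48 h. It read 10.59 and 10.67 with vehicle, 10.57 and 10.53 at 4 h, 11.67 and 11.87 at 16 h, and 12.02 and 12.10 at 48 h. The 4 h arrays lay just below vehicle and every later array far above it, with no overlap between any of the groups. AACS rose 1.14 at 16 h (SE 0.10, adjusted p = 4.6e-05), or 2.20-fold, and 1.43 at 48 h (adjusted p = 3.9e-06), or 2.70-fold. Its rise at 16 h was 1.04 without DHT 16 h replicate 2. The call at each time held under every alternative in which AACS was measured. Its only probe set was of the _s_at kind, which can share sequence between transcripts. Averaging probe sets therefore left its reading unchanged, and leaving out _x_at and _s_at probe sets left AACS unmeasured.

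MID1IP1, a small protein that promotes the assembly of acetyl-CoA carboxylase into active polymers, read highest at 16 h. Its difference of -0.30 from 16 to 48 h was not called. It read 10.36 and 10.22 with vehicle, 10.36 and 10.49 at 4 h, 10.86 and 10.85 at 16 h, and 10.55 and 10.55 at 48 h. The 16 h arrays were above all others, and the 48 h arrays lay between them and vehicle. MID1IP1 rose 0.56 at 16 h (SE 0.09, adjusted p = 0.00441; 0.56 with adjusted p = 0.0191 without DHT 16 h replicate 2), whereas the difference at 48 h was 0.26 and was not called (adjusted p = 0.123). THRSP, its relative, differed by 0.01 at 16 h (0.02 without that array) and 0.20 at 48 h.

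The other suppliers of substrate were not called at any time. ACLY, which splits citrate into acetyl-CoA, differed from vehicle by 0.17 at 16 h, 0.04 without DHT 16 h replicate 2, and -0.00 at 48 h. ACSS2, which activates acetate, differed by 0.03 at 16 h (-0.07 without that array) and 0.27 at 48 h. ME1, a source of NADPH, differed by -0.07 (-0.13 without it) and -0.11. The 9 genes of precursor supply and synthesis had a median difference of 0.17 at 16 h (0.16 without that array) and 0.26 at 48 h, where the median of all genes was 0.02 and 0.01.

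In desaturation and elongation SCD alone of 6 measured genes was called. SCD, the stearoyl-CoA desaturase that introduces the first double bond, read 13.85 and 13.87 with vehicle, 13.60 and 13.74 at 4 h, 14.24 and 14.38 at 16 h, and 14.39 and 14.23 at 48 h. Its 4 h arrays were the lowest, and its 16 and 48 h arrays overlapped each other above vehicle. SCD rose 0.45 at 16 h (SE 0.10, adjusted p = 0.0207) and 0.45 at 48 h (adjusted p = 0.0152). With the mean of all its probe sets it was called neither at 16 h (limma adjusted p = 0.867) nor at 48 h (adjusted p = 0.312). At 48 h its other probe sets differed by 0.56, 0.97 and 0.87, more than the one read, and none was called. In them DHT 48 h replicate 2 minus replicate 1 was -0.37, -0.79 and -0.89, against -0.16 in the one read. SCD was also not called at 16 h with all probe sets tested (adjusted p = 0.0551) or with only the 2 groups compared (adjusted p = 0.0584). The call at 16 h was lost without DHT 16 h replicate 2, with a difference of 0.38 (adjusted p = 0.116), and also without either vehicle array (adjusted p up to 0.129). At 48 h it was lost without DHT 48 h replicate 1 or either vehicle array (adjusted p up to 0.154). FADS2, the delta-6 desaturase, differed by 0.09 at 16 h (0.02 without DHT 16 h replicate 2) and 0.02 at 48 h, and ELOVL5, which elongates polyunsaturated acyl chains, by 0.02 (-0.07) and 0.17. ELOVL6, the elongase of palmitate, differed by 0.26 at 16 h, 0.09 without that array, and by -0.32 at 48 h. ELOVL2 and ELOVL7 differed by -0.12 and -0.11 at 16 h (-0.24 and -0.14 without it) and by 0.00 and -0.25 at 48 h.

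Fatty acids enter elongation and glycerolipid synthesis as acyl-CoA, and 1 of 3 measured long-chain acyl-CoA synthetases was called. ACSL1 read 11.49 and 11.50 with vehicle, 11.76 and 11.90 at 4 h, 12.30 and 11.87 at 16 h, and 12.50 and 12.54 at 48 h. All 6 arrays with DHT were above vehicle, and the second 16 h array lay among those at 4 h. ACSL1 rose 0.60 at 16 h (SE 0.13, adjusted p = 0.0169) and 1.03 at 48 h (adjusted p = 0.00039), or 2.04-fold, while its difference of 0.34 at 4 h was not called (adjusted p = 0.545). When DHT 16 h replicate 2 was left out the rise at 16 h was 0.81 (adjusted p = 0.0019), and the call at 16 h was lost without DHT 16 h replicate 1 or either vehicle array (adjusted p up to 0.111). ACSL4, which prefers arachidonate, read between 5.17 and 6.07, with a mean at percentile 8.19 of all genes, and its difference at 16 h was 0.40 (adjusted p = 0.226), or 0.24 without DHT 16 h replicate 2, with arrays that overlapped vehicle. ACSL5 differed by 0.02 at 16 h (0.11 without that array) and 0.19 at 48 h.

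None of the 7 genes of glycerolipid synthesis and lipid droplets was called. DGAT2, which completes triacylglycerol synthesis, read 9.16 and 9.21 with vehicle, 9.21 and 9.18 at 4 h, 9.49 and 9.56 at 16 h, and 9.57 and 9.38 at 48 h. All 4 late arrays lay above vehicle, by 0.35 at 16 h (limma adjusted p = 0.0558; 0.31 and 0.199 without DHT 16 h replicate 2) and by 0.30 at 48 h (adjusted p = 0.0873). Its partner DGAT1 differed by -0.09 at 16 h (-0.16 without that array) and 0.06 at 48 h. GPAM, the acyltransferase that opens glycerolipid synthesis, differed by -0.27 at 16 h (-0.36 without it), the lowest of the fatty acid arm, and by -0.14 at 48 h. The phosphatidate phosphatase LPIN1 differed by 0.11 (0.01 without that array) and 0.24, and LPIN2 by -0.03 (-0.01) and -0.04. The droplet coat proteins PLIN2 and PLIN3 differed by 0.01 and 0.04 at 16 h (-0.03 and -0.06 without it) and by 0.04 and -0.12 at 48 h.

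**Figure D2:**
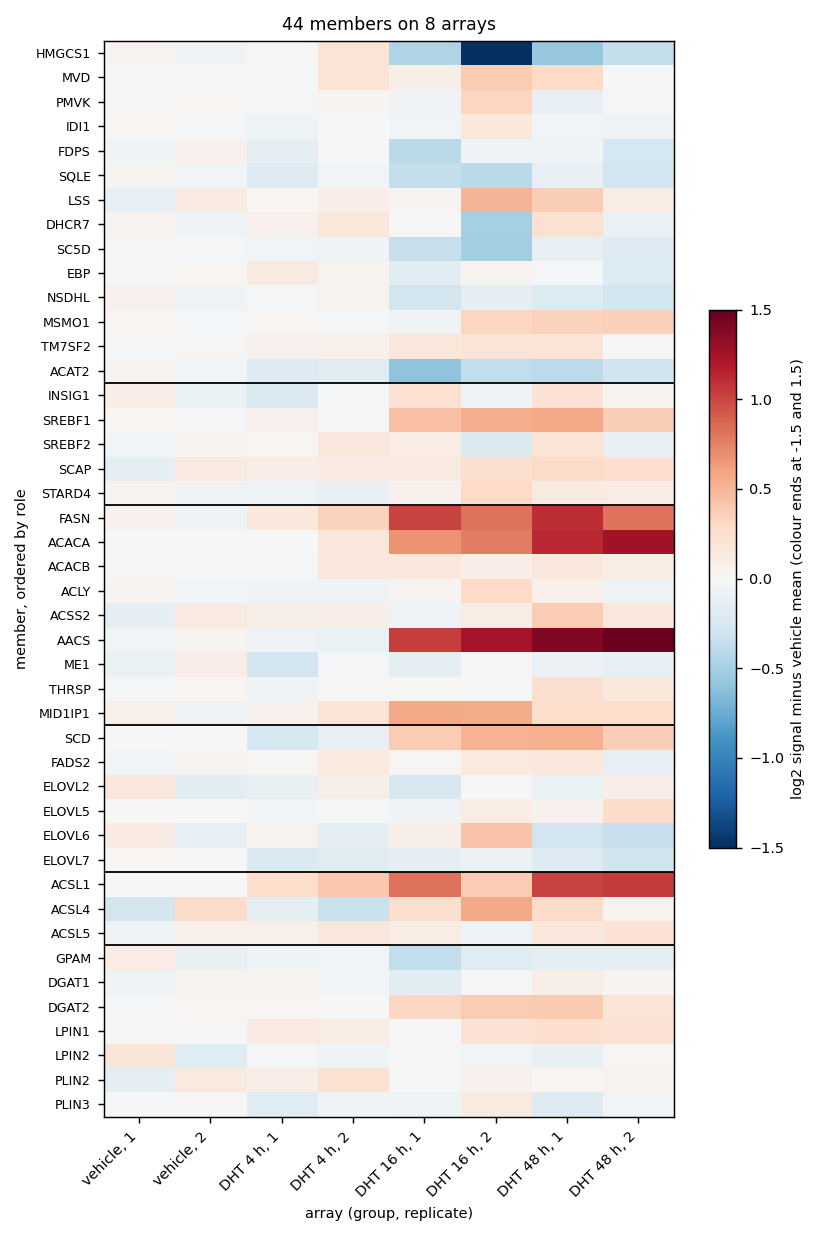
Log2 signal minus the gene's own vehicle mean (colour, red higher and blue lower) for the 44 genes (rows, in order of role, black lines between roles) on the 8 arrays (columns). The deep red cells are FASN, ACACA and AACS at 16 and 48 h, and ACSL1 at 48 h and on DHT 16 h replicate 1. The deepest blue cell is HMGCS1 on DHT 16 h replicate 2.

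Among the sterol enzymes 3 of 14 fell at 16 h and none was called at 48 h. SQLE, the squalene epoxidase that starts the conversion of squalene to sterols, read 13.31 and 13.22 with vehicle, 13.07 and 13.22 at 4 h, 12.90 and 12.86 at 16 h, and 13.14 and 12.97 at 48 h. The 16 h arrays were its lowest, and the groups at 4 and 48 h overlapped each other. SQLE fell by 0.38 at 16 h (SE 0.10, adjusted p = 0.0415), and this call was lost when any 1 of the 8 arrays was left out (adjusted p up to 0.248), with a difference of -0.36 without DHT 16 h replicate 2 (adjusted p = 0.146). SQLE differed by -0.21 at 48 h (adjusted p = 0.249).

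SC5D, the desaturase of the sterol ring near the end of the route, read 11.73 and 11.70 with vehicle, 11.68 and 11.66 at 4 h, 11.38 and 11.21 at 16 h, and 11.59 and 11.53 at 48 h. The 16 h arrays were below all others, and the 48 h arrays lay between them and vehicle. SC5D fell by 0.43 at 16 h (SE 0.09, adjusted p = 0.0189) and differed by -0.16 at 48 h (adjusted p = 0.366). The call was lost without DHT 16 h replicate 2, at -0.34 (adjusted p = 0.114), and without either vehicle array (adjusted p up to 0.129). It was also lost with the mean of its 2 probe sets (-0.30, adjusted p = 0.322), with the other probe set alone (-0.17, adjusted p = 0.78) and with only the 2 groups compared (adjusted p = 0.0755).

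ACAT2, the cytosolic thiolase that joins 2 acetyl-CoA at the head of the mevalonate route, read 11.26 and 11.19 with vehicle, 11.03 and 11.05 at 4 h, 10.62 and 10.86 at 16 h, and 10.84 and 10.92 at 48 h. All 6 arrays with DHT lay below both vehicle arrays, those at 4 h nearest to them. ACAT2 fell by 0.48 at 16 h (SE 0.10, adjusted p = 0.0149), or by 0.60 without DHT 16 h replicate 2 (adjusted p = 0.0092). The call was lost without DHT 16 h replicate 1 or vehicle replicate 1 (adjusted p up to 0.122). Its difference of -0.35 at 48 h was not called (adjusted p = 0.0568), but passed without either 16 h array, each time with an adjusted p of 0.0292.

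HMGCS1, the synthase that makes HMG-CoA, had the largest difference of the 44 genes at 16 h, in either direction, and was not called. It read 12.23 and 12.13 with vehicle, 12.20 and 12.39 at 4 h, 11.73 and 10.16 at 16 h, and 11.61 and 11.82 at 48 h. The 4 later arrays were below the 4 earlier ones, and the 2 arrays at 16 h differed from each other more than the replicates of any other group. HMGCS1 differed from vehicle by -1.24 at 16 h (SE 0.35, 95% interval -2.00 to -0.47, adjusted p = 0.0589) and by -0.47 at 48 h (adjusted p = 0.487). Without DHT 16 h replicate 2 the difference at 16 h was -0.45 (adjusted p = 0.0885), and at 48 h it stayed at -0.47 and passed (adjusted p = 0.0171). Without DHT 16 h replicate 1 it was -2.02 at 16 h, a value that rests on the array that stood apart.

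The remaining 10 sterol enzymes were not called at any time. MSMO1, a sterol C4-methyl oxidase, had the largest difference among them at 48 h. It read 11.87 and 11.80 with vehicle, 11.86 and 11.82 at 4 h, 11.78 and 12.16 at 16 h, and 12.18 and 12.20 at 48 h. Both 48 h arrays were above all others, the second 16 h array coming next, and the difference of 0.36 at 48 h was not called (adjusted p = 0.0926) but passed without either 16 h array (adjusted p = 0.0235). Its difference at 16 h was 0.13, or -0.06 without DHT 16 h replicate 2. On that same second 16 h array several of them parted from the first, and their 16 h values moved when it was left out. LSS, which closes the sterol rings, differed by 0.27 at 16 h, 0.04 without DHT 16 h replicate 2, and 0.24 at 48 h. MVD, the mevalonate diphosphate decarboxylase, differed by 0.23 (0.09 without it) and 0.14, and TM7SF2, a sterol C14-reductase, by 0.18 (0.17) and 0.09. On the other side lay NSDHL, of sterol C4 demethylation, at -0.21 (-0.28 without it) and -0.24, and FDPS, which makes farnesyl pyrophosphate, at -0.23 (-0.40) and -0.16. DHCR7, the last reductase of the route, differed by -0.24 at 16 h but by 0.01 without that array, and by 0.06 at 48 h. PMVK, a mevalonate pathway kinase, turned from 0.14 to -0.05 without it and differed by -0.08 at 48 h, and IDI1, the isopentenyl diphosphate isomerase, turned from 0.06 to -0.04 and differed by -0.06. EBP, the sterol isomerase, differed by -0.06 (-0.15 without it) and -0.11.

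Of the control genes SREBF1 alone rose. SREBF1 read 12.03 and 11.98 with vehicle, 12.07 and 12.01 at 4 h, 12.45 and 12.55 at 16 h, and 12.57 and 12.37 at 48 h. The vehicle and 4 h arrays overlapped, and all 4 later arrays lay above them. SREBF1 rose 0.50 at 16 h (SE 0.10, adjusted p = 0.0109), or 1.41-fold, and 0.47 at 48 h (adjusted p = 0.0115). With the mean of all its probe sets it was not called at 48 h (limma adjusted p = 0.154). The call at 16 h was lost without DHT 16 h replicate 2, at 0.45 (adjusted p = 0.0598), or either vehicle array (adjusted p up to 0.0633), and that at 48 h without DHT 48 h replicate 1 or either vehicle array (adjusted p up to 0.13).

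SREBF2 differed by -0.05 at 16 h (0.11 without DHT 16 h replicate 2) and 0.04 at 48 h, and its arrays overlapped vehicle at every time. SCAP, the escort protein, read 10.56 and 10.82 with vehicle, 10.79 and 10.81 at 4 h, 10.82 and 10.93 at 16 h, and 10.98 and 10.94 at 48 h. The 48 h arrays lay above both vehicle arrays, of which the second was level with the 4 h arrays, and the difference of 0.27 was not called (adjusted p = 0.148). SCAP differed by 0.18 at 16 h (0.13 without that array). STARD4, a carrier of cholesterol between membranes, differed by 0.18 at 16 h (adjusted p = 0.358; 0.07 without DHT 16 h replicate 2) and 0.12 at 48 h. INSIG1, the retention protein and itself a known SREBP target, differed by 0.09 at 16 h (0.23 without that array) and 0.13 at 48 h and was not called.

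The 2 arms were then set side by side. AACS, which can feed both routes, was counted in the fatty acid arm, and no alternative moved it to the sterol arm. The counts and medians below depend on that placement. At 16 h 6 of 25 fatty acid genes rose and none fell, whereas none of 14 sterol enzymes rose and 3 fell, where 2.55% of all genes rose and 4.3% fell. At 48 h the counts were 5 risen and none fallen in the fatty acid arm, and none in either direction among the sterol enzymes, where 3.13% of all genes rose and 6.38% fell. The median difference from vehicle in the fatty acid arm was -0.01, 0.09 and 0.17 log2 units at 4, 16 and 48 h, and that of the sterol enzymes 0.01, -0.13 and -0.09. The fatty acid median was thus 0.22 above the sterol median at 16 h and 0.26 above it at 48 h, after -0.02 at 4 h. The gap at 16 h was 0.13 without DHT 16 h replicate 2, with medians of 0.02 and -0.11. It was 0.15 without DHT 16 h replicate 1, so either array alone gave less than the 0.22 of both together. Taken array by array, the fatty acid median was 0.02 and 0.14 above the vehicle mean at 16 h, and the sterol median was -0.11 and -0.01, so the fatty acid value was the higher on each array. At 48 h the fatty acid medians were 0.17 and 0.12 and the sterol medians -0.05 and -0.15. The gap is a description and carries no p-value here. Counting genes with both arrays on 1 side of both vehicle arrays, at 16 h 9 of 25 fatty acid genes lay above and 2 below, and 2 of 14 sterol enzymes lay above and 5 below, where 25.9% of all genes lay above and 21.1% below. These counts at 16 h use the array that stood apart. At 48 h 13 of 25 fatty acid genes lay above and 4 below, and 1 of 14 sterol enzymes lay above and 7 below, where 25.7% of all genes lay above and 26.1% below.

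**Figure D3:**
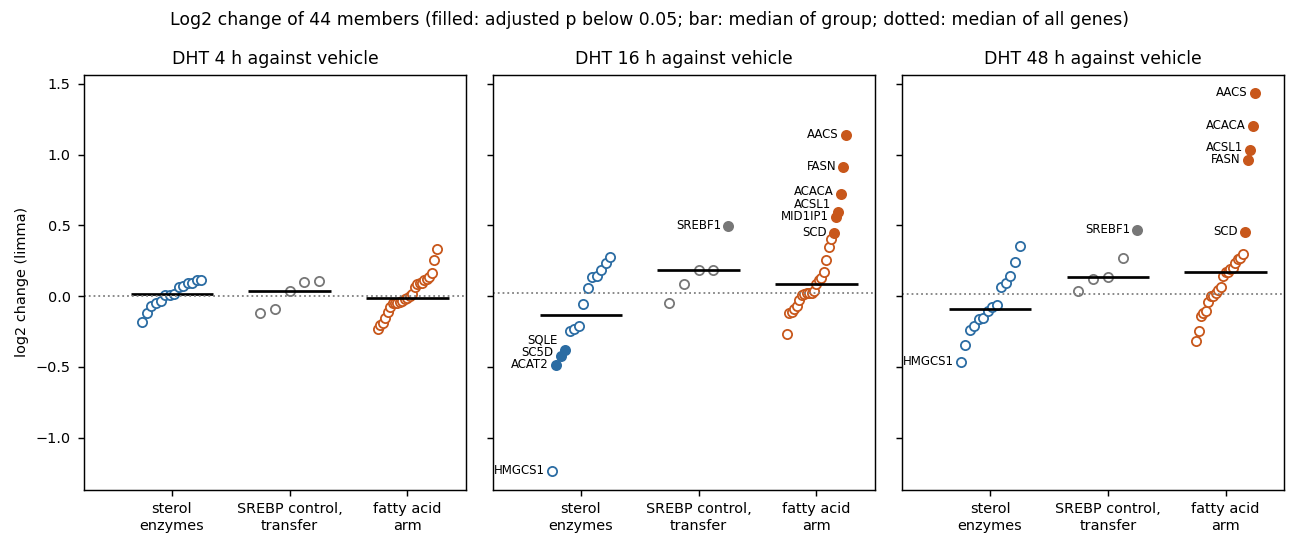
Log2 change against vehicle (vertical axis) of each of the 44 genes at 4, 16 and 48 h (panels), by sterol enzymes, control and transfer genes and the fatty acid arm. Filled points were called at an adjusted p below 0.05, bars are the median of each set and the dotted line is the median of all genes. At 16 h the filled points of the fatty acid arm run from SCD at 0.45 to AACS at 1.14 and those of the sterol enzymes lie between -0.48 and -0.38.

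Between 4 and 16 h 6 of the 44 genes rose, against 1.28% of all genes, and none fell, against 1.77%. They were AACS by 1.22 (adjusted p = 4.4e-05), FASN by 0.66 (adjusted p = 0.0156), SCD by 0.64 (adjusted p = 0.00543), ACACA by 0.63 (adjusted p = 0.00516), SREBF1 by 0.46 (adjusted p = 0.0291) and MID1IP1 by 0.43 (adjusted p = 0.0328). The AACS call held under every alternative in which AACS was measured. Those of SREBF1 and MID1IP1 were lost without DHT 16 h replicate 2, with adjusted p values of 0.143 and 0.11, whereas FASN, SCD and ACACA stayed called without it. Without DHT 4 h replicate 1 all of the 6 but AACS were lost, and without DHT 4 h replicate 2 SREBF1, FASN and MID1IP1 were lost (adjusted p up to 0.308). Between 16 and 48 h none of the 44 was called in limma after adjustment, where 0.349% of all genes rose and 0.48% fell. An unadjusted p below 0.05 was reached by 7 of the 44, and by 2125 of all 19775 genes. The 3 sterol enzymes that fell at 16 h lay 0.14 to 0.27 higher at 48 h than at 16 h, none of them called.

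The array holds further probe sets for most of these genes, and they did not always follow the one read. Of 11 further probe sets of the genes called at 16 h, 8 had the same sign and 1 was called, and of 7 at 48 h all had the same sign and 1 was called. The called one was the second probe set of ACSL1, with 0.73 at 16 h (limma adjusted p = 0.00951 over all probe sets) and 0.94 at 48 h (adjusted p = 0.00163). FASN's dimmer second probe set differed by 0.19 at 16 h and 0.51 at 48 h, that of ACACA by 0.26 and 0.15, and that of SREBF1 by 0.37 and 0.12, none called. Of the other 3 probe sets of SCD, 1 differed by 0.30 at 16 h, and the others by -0.05 and -0.06. In those 2 probe sets replicate 1 at 16 h read 13.38 and 12.73, and replicate 2 read 10.58 and 10.13. The second probe set of HMGCS1 read 10.13 and 10.60 at 16 h against 10.68 and 10.77 with vehicle, so that the deep reading of 10.16 on DHT 16 h replicate 2 was not shared by it. SQLE's other probe sets differed at 16 h by -0.00, -0.72 and 0.11.

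**Figure D4:**
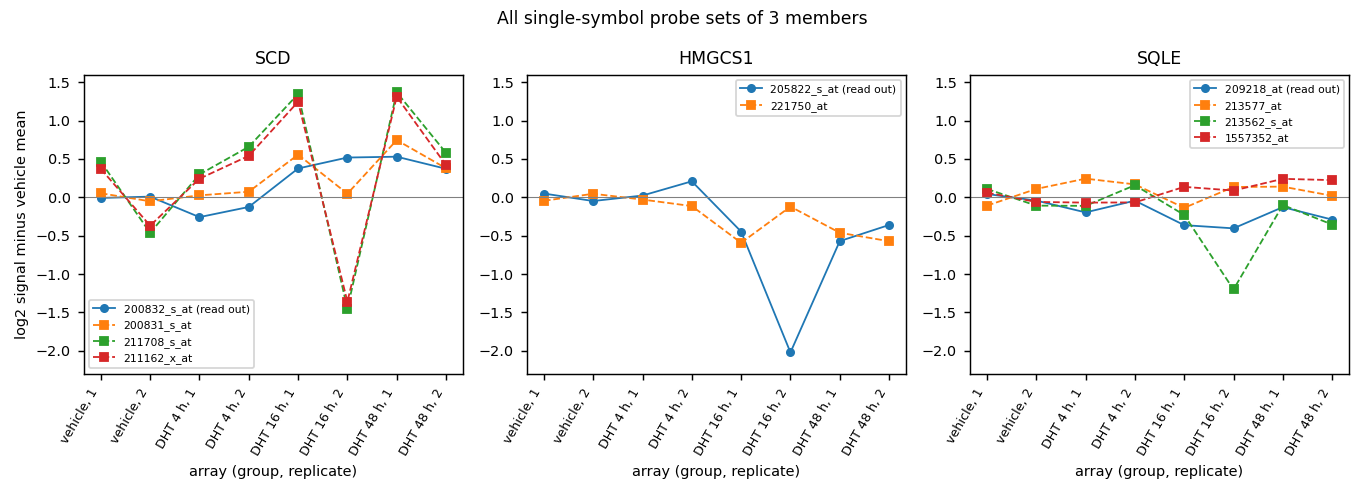
Log2 signal minus the probe set's own vehicle mean (vertical axis) on the 8 arrays (horizontal axis) for every probe set that carries SCD, HMGCS1 or SQLE as its only symbol. Circles with a full line mark the probe set read in the text and squares with dashed lines the others. On DHT 16 h replicate 2 they part: 2 probe sets of SCD, the one read for HMGCS1 and 1 of SQLE dip.

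Genes of neighbouring lipid pathways, taken from a further list of 41 of which 36 were measured, gave context. Of 11 genes of sterol control and uptake, 2 rose and 1 fell at 16 h, where 2.55% of all genes rose and 4.3% fell, and 1 rose and 2 fell at 48 h, where 3.13% rose and 6.38% fell. VLDLR, a receptor for triacylglycerol-rich lipoproteins, read 7.27 and 6.84 with vehicle, 7.33 and 7.38 at 4 h, 8.27 and 8.20 at 16 h, and 9.26 and 9.10 at 48 h. Its groups did not overlap and stood in order of time. VLDLR rose 1.18 at 16 h (adjusted p = 0.000272; 1.21 and 0.00146 without DHT 16 h replicate 2) and 2.12 at 48 h (adjusted p = 1.6e-06), or 4.35-fold, both calls held without any 1 array. INSIG2, the second retention protein, read 10.81 and 10.81 with vehicle, 10.24 and 10.16 at 4 h, 10.34 and 10.33 at 16 h, and 10.29 and 10.35 at 48 h. It was below vehicle on all 6 arrays with DHT and fell by 0.61, 0.47 and 0.48 at the 3 times (adjusted p = 0.022, 0.00793 and 0.0048), and at 16 h by 0.47 without DHT 16 h replicate 2 (adjusted p = 0.0334). The call at 4 h was lost without any 1 of 6 of the 8 arrays (adjusted p up to 0.396), that at 16 h without vehicle replicate 1 (0.0598) and that at 48 h without DHT 48 h replicate 1 (0.0511). MYLIP, a ubiquitin ligase of lipoprotein receptors, rose 0.44 at 16 h (adjusted p = 0.0416; 0.34 and 0.21 without DHT 16 h replicate 2), a call lost without any 1 of 7 of the 8 arrays. LBR, which also has sterol C14-reductase activity, fell by 0.58 at 48 h (adjusted p = 0.0147), a call lost without DHT 48 h replicate 1 or either vehicle array.

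Of 17 further genes of fatty acid handling none rose and 1 fell at 16 h, where 2.55% of all genes rose and 4.3% fell. At 48 h 2 rose and 1 fell, where 3.13% rose and 6.38% fell. The fallen were a share of 5.88% at each time, near those of all genes. TECR, the reductase of very-long-chain elongation, fell by 0.43 at 16 h (adjusted p = 0.0386; -0.27 and 0.221 without DHT 16 h replicate 2), a call lost without any 1 of 7 of the 8 arrays. OXSM, of mitochondrial fatty acid synthesis, rose 0.38 at 48 h (adjusted p = 0.0425), and HACD3, an elongation dehydratase, rose 0.33 (adjusted p = 0.0495). The OXSM and HACD3 calls were lost without any 1 of 5 and of 6 arrays, with adjusted p values up to 0.329. SCD5, the second human stearoyl-CoA desaturase, fell by 0.54 at 48 h (adjusted p = 0.0124), opposite to SCD, a call lost without either 48 h array or vehicle replicate 1 (adjusted p up to 0.118). Of 8 genes of fatty acid oxidation and lipolysis none was called at 16 h. At 48 h 1 rose and 1 fell, where 3.13% of all genes rose and 6.38% fell. ACADM, the medium-chain acyl-CoA dehydrogenase, rose 0.93 at 48 h (adjusted p = 0.00371), a call kept without any 1 array. CPT1A, which admits long-chain acyl groups to mitochondria, fell by 0.41 at 48 h (adjusted p = 0.0248), a call lost without DHT 48 h replicate 1 or either vehicle array (adjusted p up to 0.222).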

How the data were processed

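The deposited values were log2 probe set signals of 8 arrays, normalised by the authors with RMA per the submitters' processing notes, of which no version is named in the sources used here. Of 54675 probe sets, 62 controls, 1801 with several symbols and 11721 with none were left out, and the brightest of each gene's probe sets gave 19775 genes. Of the 44 measured members 24 were read by _s_at or _x_at probe sets, which can share sequence between transcripts. The number of arrays limits the precision.

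Group means were fitted with limma 3.58.1 in R 4.3.3, which was also tested on simulated data; 4 residual degrees of freedom were joined by 7.21 prior ones. Named with their values on each array or with adjusted p were every called member, the 2 uncalled members with the largest difference in each of 3 sets (sterol enzymes, control, fatty acid arm), called genes of the neighbouring pathways, and FKBP5; the other members are given by their differences alone. With 2 arrays a group an exact permutation test of a single value cannot give a two-sided p below 0.333. Members and lists were chosen with earlier results of these data known. Counts of both arrays on 1 side of vehicle are not tests. The labels do not say that a replicate number marks a common day, so the numbers were not taken as pairs. Deviations of same-numbered arrays from their group means had correlations of -0.24 to 0.20 between groups. Alternatives left out each array, added a replicate block, fitted 2 groups only, rescaled to housekeeping genes, kept the brighter 60% of genes, changed the probe set rule or the spread model, or changed the arms. P-values measure the spread between the replicates called biological in the labels.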

Additional observations from a re-analysis of the deposited data

Results flagged for a closer look

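The response to DHT differed between 4 and 16 h, by limma's test of that difference, for SREBF1 (0.46 log2 units higher at 16 h), FASN (0.66), ACACA (0.63), AACS (1.22), MID1IP1 (0.43), SCD (0.64) and VLDLR (0.88). VLDLR also differed between 16 and 48 h, by 0.95 (adjusted p = 0.00583).

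In other genes every array moved one way from the vehicle mean at 4 h and the other way at 48 h, a difference that was not tested. HMGCS1 differed by 0.12 at 4 h and -0.47 at 48 h, STARD4 by -0.092 and 0.123, ACSL4 by -0.23 and 0.17, and ACADM by -0.20 and 0.93. The rule ignores the spread of the vehicle arrays, and its share over all genes was not counted. HMGCS1 at 4 h (12.20 and 12.39) overlapped vehicle (12.23 and 12.13). ACSL4 at 48 h (5.79 and 5.55) also overlapped vehicle (5.22 and 5.78). STARD4 did not overlap vehicle at either time.

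Control probe sets at the 3′ and 5′ ends of 2 transcripts lay outside the comparisons. The 3′ minus 5′ signal of ACTB was 1.52 on DHT 16 h replicate 2 and 0.945 on DHT 48 h replicate 2, and that of GAPDH was 0.817 on DHT 16 h replicate 2, each more than 3 SD above the vehicle arrays.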

How the results depend on the processing

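Of 10 calls at 16 h 3 held under every alternative that measured the gene (ACACA, AACS and MID1IP1). Of 6 at 48 h 4 held (FASN, ACACA, AACS and ACSL1), and of 6 between 4 and 16 h 1 (AACS). AACS and FASN were not measured without _x_at and _s_at probe sets. AACS and MID1IP1 had no further probe set, so averaging left their reading unchanged. No paired structure is named in the labels. With the replicate block 7 genes rose and 2 fell at 16 h, against 2.32% and 4.06% of all genes, and 6 rose at 48 h, against 2.84%. Between 4 and 16 h 5 rose, against 1.11%, and 7 were called at any time, against 7.98%. Without _x_at and _s_at probe sets only 29 members were measured. Of these 4 rose and 0 fell at 16 h, against 1.89% and 3.33% of all genes. At 48 h 3 rose and 1 fell, against 2.35% and 5.03%, and 4 were called at any time, against 6.66%. With only the 2 groups compared 0 fell at 16 h and 1 at 48 h, against 2.73% and 6.31% of all genes. The brighter 60% of genes held 37 members. That setting, eBayes with trend and robust settings and the mean of all probe sets each gave 1 fallen at 48 h. The shares of all genes were 10.9%, 7.04% and 5.81%. Each also gave 1 fallen between 4 and 16 h, against 3.6%, 2.24% and 1.53%. Equal housekeeping signal gave 2 fallen between 4 and 16 h, against 2.87% of all genes. The brighter 60% of genes, eBayes with trend and robust settings and equal housekeeping signal gave 1 risen between 16 and 48 h, which was ACACA. The shares of all genes were 0.666%, 0.45% and 0.46%. Testing all probe sets gave 3 risen between 4 and 16 h, against 0.551%. The cause was not tested. SCD between 4 and 16 h was -0.022 with the mean of all probe sets (adjusted p = 0.991), and TECR at 16 h was 0.065 without _x_at and _s_at probe sets. The fatty acid median minus the sterol median was 0.285 at 16 h and 0.295 at 48 h with the brighter genes, 0.0307, 0.104 and 0.144 at 4, 16 and 48 h with the mean of all probe sets, and 0.0574 at 4 h and 0.279 at 16 h without _x_at and _s_at probe sets. It was 0.264 at 16 h with the fatty acid arm kept to synthesis, desaturation and elongation, and 0.0959 and 0.182 at 16 and 48 h with the control genes divided between the arms. Leaving out 1 array gave a range of -0.0528 to 0.0222 at 4 h, 0.127 to 0.243 at 16 h and 0.223 to 0.269 at 48 h. Over the same omissions, counts of risen genes ranged from 4 to 7 at 16 h (4 without vehicle replicate 1), 4 to 7 at 48 h, 1 to 7 between 4 and 16 h (1 without DHT 4 h replicate 1) and 0 to 2 between 16 and 48 h. Counts of fallen genes ranged from 0 to 2 at 16 h (0 without vehicle replicate 1), 0 to 2 at 48 h (2 without either 16 h array), 0 to 3 between 4 and 16 h and 0 to 1 between 16 and 48 h, and 7 to 11 genes were called at any time. No gene was called at 4 h under any of them. Where an omission left 1 array in a group, that array was assumed to vary like the other groups.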
